A study of Mus musculus with 4 samples.

Results

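Motile cilia genes are described here in medullary thymic epithelial cells (mTECs), the stromal cells of the thymic medulla that show peripheral self antigens to developing T cells. The genes were taken from a list of 41 that covers the transcription factor *Foxj1* and its programme: dynein arms, radial spokes, tektins and assembly factors. Rows of the count table were matched to the list by gene symbol, without regard to their values. Of the 41 genes, 28 were among the 23337 symbols of the table. A further 11 were there under an older symbol (10 axonemal dynein heavy chains written Dnahc, and *Pifo* as 1700027A23Rik) and are given separately, and 2 (*Dnah3* and *Dnah12*) were under neither.

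mTECs were sorted as CD45-EpCAM+UEA-1+Ly51- cells from thymuses of C57BL/6 mice at 4 weeks of age and measured by bulk RNA-seq in 4 libraries. In the 2 libraries that are labelled Sirt6 cKO (cKO-labelled below) the mice carried *Foxn1*-Cre and *Sirt6* loxp/loxp alleles, so that Cre was driven by *Foxn1*, a promoter of thymic epithelial cells. GEO's genotype for these libraries is Sirt6-/-. The 2 wild-type (WT) libraries came from littermates or age-matched mice without Cre. The methods call the samples of a group independent and do not say how many thymuses each holds, so p-values measure only the spread between these samples. *Sirt6* encodes a nuclear deacetylase of histones, and the comparison asks what its loss does to mTECs.

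A motile cilium is built around an axoneme, a ring of microtubule doublets around a central pair. Dynein arms on the doublets slide them against each other, while radial spokes and the central apparatus time the arms so that the cilium beats. Cells with many motile cilia line the airways, the oviduct and the brain ventricles. FOXJ1 is the forkhead factor that switches on axoneme genes, and RFX factors act beside it through the X-box, a short palindrome in the promoters of cilia genes. Among mTECs, a small subset that resembles ciliated airway epithelium has been described. In bulk libraries, fewer cells of such a type and less RNA per cell cannot be told apart.

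The counts summed to between 61102704 and 65907745 a library. The targeted gene *Sirt6* had 622 and 755 counts in WT against 882 and 835 in the cKO-labelled libraries, a log2 fold change of 0.37 (SE 0.32, edgeR adjusted p = 0.80), so the targeted gene was not lower there. Gene counts do not show which exons the reads fell in. The paper reported that *Sirt6* was inactivated, from a western blot of cultured thymic epithelial cells and quantitative PCR of sorted mTECs. Markers of mTECs were detected in each library (12 of 12). Their summed TPM, a level per transcript length, was 21632 to 22362 in WT and 23505 to 23552 in the cKO-labelled libraries. Most of each sum was *H2-Aa*, at 15267 and 14864 TPM in WT and 16768 and 15196 TPM in the cKO-labelled libraries. At the unadjusted p 4 of the 12 were higher (*Epcam*, *Aire*, *Cd80* and *Relb*) and 0 lower, the median log2 fold change was 0.33, and DESeq2 gave *Cd80* an adjusted p of 0.011. Markers of thymocytes, B cells, macrophages and dendritic cells were also counted, although the sort was for CD45- cells, and only *Pax5* of these was at 0 in any library.

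All 28 genes passed the filter on low counts, *Fam183b* only through the WT libraries. Most were expressed at low levels. The median of the group means was 8.21 TPM in WT and 2.80 TPM in the cKO-labelled libraries, and 9 genes were under 5 TPM and 2, *Tppp3* and *Mns1*, were over 20 TPM in WT. Of the 28, 24 had a negative log2 fold change (Sirt6 cKO against WT), *Fam183b* among them, and the median was -0.95. Setting *Fam183b* at the bound that its counts allow could not move this median, since the bound is still below it. Without WT 2 the median was -0.59. Over all 18547 genes tested the median was -0.0047. The groups did not overlap for 21 of the 28. Of these, 19 were lower in both cKO-labelled libraries than in both WT libraries, *Fam183b* among them, and 2 were higher (*Foxj1* and *Tekt2*). Of all genes tested, 20.3% were lower and 21.6% higher in this way.

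At an unadjusted p under 0.05 (edgeR quasi-likelihood test), 5 of the 28 were lower (*Armc4*, *Spag16*, *Sntn*, *Spag6* and *Rsph4a*) and 1, *Foxj1*, was higher. Of all genes tested 3.32% were lower and 5.27% higher by that rule, and higher genes were 61.4% of all calls, but 48.4% with upper quartile scaling and 46.2% with library size alone. After Benjamini-Hochberg adjustment 0 of the 28 passed with edgeR, a threshold that 0.00539% of all genes passed, and 1 of the 28, *Armc4*, passed with DESeq2, which called 0.795% of its genes lower and 1.03% higher. The count of lower members depended on single libraries. It was 11 without WT 1 and 2 without Sirt6 cKO 1. With the 11 genes under older symbols added, 31 of 39 were negative, the median was -0.71, and 6 were lower and 1 higher at the unadjusted p. The median of those 11 alone was -0.18.

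**Figure D1:**
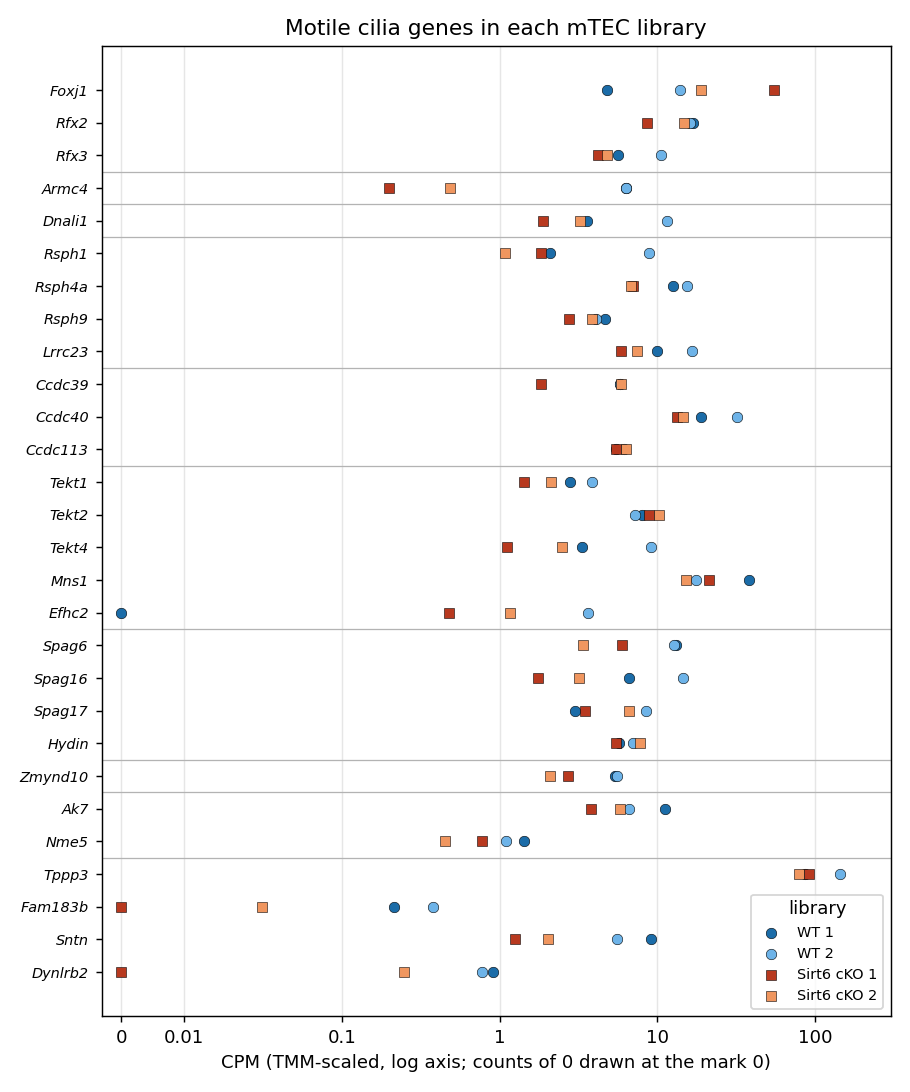
CPM (library-scaled counts, TMM, log axis) of the 28 members in each of the 4 mTEC libraries, ordered by role with lines between the roles; circles are WT and squares the cKO-labelled libraries. *Foxj1* is lowest in WT 1 and highest in Sirt6 cKO 1, while for most genes below it the squares sit to the left of the circles.

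Among the other 27 genes, taken one at a time, the library with the highest CPM was WT 1 for 9, WT 2 for 14, Sirt6 cKO 2 for 4 and Sirt6 cKO 1 for 0. The library with the lowest CPM was Sirt6 cKO 1 for 17 and Sirt6 cKO 2 for 7, and a WT library for 3. Sirt6 cKO 1 was thus the library with the most *Foxj1* and the one in which most other members were lowest. Replicates of a group also differed. For 7 of 27 members the WT libraries differed by over 2-fold, and for 5 of 26 the cKO-labelled libraries did, leaving out genes with a count of 0.

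*Foxj1* (chr11:116330704-116335399, minus strand, GRCm38) was counted 314 times in WT 1 and 879 times in WT 2, against 3295 times in Sirt6 cKO 1 and 1213 times in Sirt6 cKO 2. The groups did not overlap, but replicates differed by 2.88-fold in WT and by 2.89-fold in the cKO-labelled libraries (CPM), more than the step from WT 2 to Sirt6 cKO 2. The level was 9.30 ± 6.37 CPM in WT and 36.8 ± 25.2 CPM in the cKO-labelled libraries (SD, n = 2 each). edgeR gave a log2 fold change of 1.98 (SE 0.72, adjusted p = 0.552). DESeq2 gave an adjusted p of 0.0976. Without Sirt6 cKO 1 the log2 fold change was 1.02 and without WT 1 it was 1.38, and neither passed the unadjusted threshold, so the call rested on these libraries. It was also lost with log2(TPM + 0.1). The sign stayed positive under each of the 12 other settings tried.

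*Rfx2* and *Rfx3* encode RFX factors that bind the X-box. *Rfx2* had 1098 and 1025 counts in WT against 520 and 941 in the cKO-labelled libraries, and its log2 fold change was -0.50 (SE 0.37, adjusted p = 0.766). *Rfx3* had 369 and 671 counts in WT against 254 and 309, and its log2 fold change was -0.84 (SE 0.48, adjusted p = 0.684). Both were lower without overlap, in the direction opposite to *Foxj1*, and neither passed the unadjusted test.

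*Foxj1* and the summed level of the other members stood in opposite order by group. *Foxj1* stood at 4.03 and 12.0 TPM in WT 1 and 2, against 46.1 and 16.1 TPM in Sirt6 cKO 1 and 2. The summed level of the 26 members other than *Foxj1* and *Tppp3*, the most abundant member, was 203, 233, 109 and 124 TPM in the same order. The ratio of that sum to *Foxj1* was 50.3 and 19.5 in WT, and 2.37 and 7.73 in the cKO-labelled libraries. For 2 libraries set against 2, an exact permutation test cannot go below p = 0.333, so no test of this ratio is given.

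**Figure D2:**
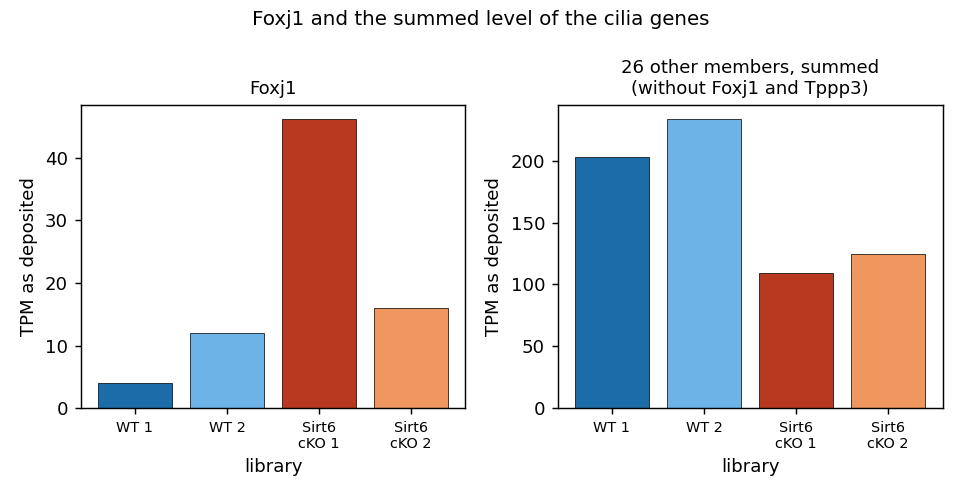
TPM of *Foxj1* (left) and the summed TPM of 26 other members (right) in each library, as bars from 0. *Foxj1* is 46.1 TPM in Sirt6 cKO 1 and 4.03 in WT 1, while the sum is 203 and 233 in WT against 109 and 124 in the cKO-labelled libraries.

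The promoters are shown for their motifs for RFX and forkhead factors. The list was drawn as the programme of *Foxj1*, so motif shares above those of all genes may not be independent of that choice. A RefSeq promoter (GRCm38.p6, 250 bases before to 50 after the start) was matched for 21 of the 28 members. *Foxj1*, *Tppp3*, *Nme5*, *Rsph1*, *Rsph4a* and *Armc4* were not matched, and *Spag6* was left out because the table's *Spag6* may stand for the gene now named *Spag6l*. An X-box consensus, searched on both strands, was in 5 of the 21 (23.8%), against 1.75% of all 27025 genes of the promoter table. These were *Spag16*, *Lrrc23*, *Tekt2*, *Dynlrb2* and *Hydin*. The 250 bases before the start are given for *Spag16*, which was lower at the unadjusted p, and *Hydin*, for which no difference was detectable, with the X-box in capitals.
*Spag16* (chr1:69826720-69826969, + strand): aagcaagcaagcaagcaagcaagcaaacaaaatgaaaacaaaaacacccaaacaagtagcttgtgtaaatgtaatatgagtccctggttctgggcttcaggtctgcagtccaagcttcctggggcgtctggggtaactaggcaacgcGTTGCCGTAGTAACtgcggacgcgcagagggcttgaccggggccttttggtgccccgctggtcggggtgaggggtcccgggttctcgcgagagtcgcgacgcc
*Hydin* (chr8:110266727-110266976, + strand): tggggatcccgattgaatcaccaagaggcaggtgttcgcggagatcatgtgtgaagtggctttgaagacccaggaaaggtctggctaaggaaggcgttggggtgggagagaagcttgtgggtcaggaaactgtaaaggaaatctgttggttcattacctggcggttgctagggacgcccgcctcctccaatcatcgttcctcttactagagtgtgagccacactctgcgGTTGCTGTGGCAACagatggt
The X-boxes of the other 3 genes are given with 8 bases on each side, on the strand of the gene.
*Lrrc23* (chr6:124779879-124779891, - strand): ttggcctcGTAACCTGGCAACtactgagc
*Tekt2* (chr4:126325705-126325717, - strand): agggggcgGTTGCTCGGCAACcagagccg
*Dynlrb2* (chr8:116504964-116504976, + strand): cctgcctgGTTGCCTAGCAACgggggaag

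The forkhead motif (TGTTTAC or TGTTTGC, both strands, not overlapping the X-boxes) was in 7 of the 21 promoters (33.3%), against 9.47% of all genes of the table. It is printed in capitals with 8 bases on each side, on the strand of the gene, so that GTAAACA and GCAAACA are the motif read on the other strand.
*Spag16* (chr1:69826742-69826748, + strand): gcaagcaaGCAAACAaaatgaaa
*Sntn* (chr14:13670640-13670646, + strand): ccattccaGTAAACAtactgaga
*Tekt4* (chr17:25471463-25471469, + strand): cttgcgagGCAAACAtttttacc
*Tekt1* (chr11:72361974-72361980, - strand): ctttgtctTGTTTGCtcgggtta
*Dnali1* (chr4:125065644-125065650, - strand): tggtgatcGCAAACAagactcca
*Ak7* (chr12:105705851-105705857, + strand): agagaaatTGTTTACccaagcag
*Tekt2* (chr4:126325691-126325697, - strand): ccagagccGCAAACAacaggagt

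Of these 7 genes, 6 were lower without overlap and 1, *Tekt2*, was higher. Among all 21 members with a matched promoter, 14 were lower without overlap, and a link between motif and direction was not tested. By that split, 6 of 14 promoters of members lower without overlap held the forkhead motif and 3 of 14 an X-box, and of the other 7 promoters 1 held the forkhead motif and 2 an X-box. None of the 11 genes under older symbols, the dynein heavy chains among them, had either motif in this window. The motif counts describe letters in this window and are not binding sites.

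*Armc4*, now also called *Odad2*, encodes a protein of the outer dynein arm docking complex and had the lowest log2 fold change of the 28. It had 415 and 403 counts in WT against 12 and 31 in the cKO-labelled libraries. The WT libraries were nearly alike and the group means differed 18.6-fold. This was 6.34 ± 0.0052 CPM against 0.341 ± 0.201 CPM (SD, n = 2 each). The log2 fold change was -4.21 (SE 0.75, adjusted p = 0.541) with edgeR, and DESeq2 gave an adjusted p of 5.8e-05. The unadjusted p stayed under 0.05 in each of the 12 other settings.

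The outer arm heavy chains, the motors themselves, lay closer to 0. *Dnah5*, found under the symbol Dnahc5, had 907 and 586 counts in WT against 729 and 629, with a log2 fold change of -0.08. *Dnah9* had 2283 and 1913 against 2741 and 2043, with a log2 fold change of 0.25. *Dnah8*, which is used mainly in sperm flagella, and *Dnah11* were lower without overlap at log2 fold changes of -0.34 and -0.65. For *Dnah11* the groups were apart by only 6.386 CPM in WT 1 against 6.379 CPM in Sirt6 cKO 1, and the log2 fold change was -0.034 without WT 2. Reads of *Dnah11* and *Dnah8* could also come from genes on the other strand, since 642 and 207 of their exonic bases overlap *Cdca7l* and 1700097N02Rik. None of the 4 passed the unadjusted test.

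Of the inner arm genes, *Dnah7b* was the one that passed the unadjusted test. It had 566 and 747 counts in WT against 182 and 127 in the cKO-labelled libraries. The log2 fold change was -2.03 (SE 0.46, adjusted p = 0.541) with edgeR, and DESeq2 gave an adjusted p of 0.0271. The near-identical copies limit this gene, since 48.4% of the 50-base words of its transcript recur in other genes, most of them in *Dnah7c*. Of the words of its paralog *Dnah7a*, 40.3% recur in other genes and 30.6% in *Dnah7b*. *Dnah7a* had 65 and 100 counts in WT against 71 and 126.

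The other inner arm genes did not pass. *Dnah1* had 413 and 371 counts in WT against 638 and 628, higher without overlap at a log2 fold change of 0.75 (SE 0.35, adjusted p = 0.631). *Dnah6* had 936 and 1057 counts against 333 and 860, at a log2 fold change of -0.71. *Dnah2* and *Dnah10* overlapped between the groups, at log2 fold changes of 0.17 and -0.18. *Dnali1*, a light chain of the inner arm, had 233 and 727 counts in WT against 114 and 208, lower without overlap at a log2 fold change of -1.54 (SE 0.72, adjusted p = 0.631) that was -0.47 without WT 2. Summed over the 10 heavy chains, the level was 17.8 and 19.1 TPM in WT and 16.98 and 16.59 TPM in the cKO-labelled libraries, a narrower gap than in the sum over the 26 members above.

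The 4 genes of the spokes were lower without overlap, and 1 passed the unadjusted test. *Rsph4a*, which encodes a protein of the spoke head (chr10:33905111-33916021, plus strand), had 820 and 981 counts in WT against 422 and 439. The replicates of each group lay close together. The levels were 14.0 ± 2.04 and 6.92 ± 0.104 CPM (SD, n = 2 each). The log2 fold change was -1.01 (SE 0.33, adjusted p = 0.541). The call was lost without WT 2, without Sirt6 cKO 1 and without Sirt6 cKO 2.

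*Rsph1*, another spoke head gene, had 136 and 560 counts in WT against 110 and 69, a log2 fold change of -1.91 (SE 0.87, adjusted p = 0.627) that was -0.52 without WT 2. *Lrrc23*, which encodes a spoke protein and has an X-box, had 654 and 1057 counts against 356 and 477, at a log2 fold change of -0.996 (SE 0.41, adjusted p = 0.594). *Rsph9* had 306 and 258 counts against 165 and 246, and its log2 fold change of -0.41 was within its standard error of 0.53. The spokes shared a direction, with group means that differed 3.75-fold in *Rsph1* and 1.33-fold in *Rsph9*.

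CCDC39 and CCDC40 form the ruler that sets the repeat of spokes and inner arms along the doublet. *Ccdc40* had 1240 and 2026 counts in WT against 804 and 938, lower without overlap at a log2 fold change of -0.86 (SE 0.36, adjusted p = 0.6). Its partner *Ccdc39* had 381 and 370 against 110 and 379, so that only Sirt6 cKO 1 was low. *Ccdc39* shares 1256 exonic bases with *Ttc14* on the other strand. *Ccdc113* showed no detectable difference, with 359 and 391 counts against 330 and 408 and a log2 fold change of 0.02 (SE 0.40), and its sign turned under other scalings.

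Tektins are filament proteins bound inside the doublets, and none of the 3 on the list passed the unadjusted test. *Tekt4* had 218 and 578 counts in WT against 67 and 159, a log2 fold change of -1.79 (SE 0.76, adjusted p = 0.605) that was -0.89 without WT 2. *Tekt1* had 184 and 244 counts against 86 and 135, at a log2 fold change of -0.91 (SE 0.68). *Tekt2* had 523 and 462 counts in WT against 535 and 654, which was higher without overlap after scaling, at 7.62 ± 0.516 against 9.53 ± 0.942 CPM (SD, n = 2 each). Its log2 fold change of 0.32 (SE 0.34, adjusted p = 0.853) was the highest of the 28 after *Foxj1* and was no larger than its standard error.

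*Mns1*, a protein of the doublet lumen needed for cilia and sperm tails, had 2503 and 1111 counts in WT against 1288 and 969. It was highest in WT 1 and the groups overlapped, and 2842 of its exonic bases overlap *Tex9* on the other strand. *Efhc2* had 0 counts in WT 1 and 230 in WT 2, against 29 and 75. Its log2 fold change of -1.13 had a standard error of 2.22, and its sign turned when replicate numbers were blocked.

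Of the 4 genes of the central pair and its projections, 2 were lower by the unadjusted test and 2 overlapped. *Spag16* (chr1:69826970-70725132, plus strand) encodes a protein of the central apparatus and had 430 and 921 counts in WT against 106 and 204. The lower WT library, at 6.57 CPM, was still above the higher of the other libraries, at 3.18 CPM. The levels were 10.5 ± 5.59 and 2.47 ± 1.01 CPM (SD, n = 2 each), with a log2 fold change of -2.09 (SE 0.60, adjusted p = 0.541). The call was lost without WT 2 and without Sirt6 cKO 1.

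*Spag6*, whose product binds that of *Spag16*, had 863 and 805 counts in WT against 362 and 218. As said for the promoters, this symbol may stand for the gene now named *Spag6l*. The levels were 12.9 ± 0.378 and 4.70 ± 1.84 CPM (SD, n = 2 each). Its log2 fold change was -1.46 (SE 0.42, adjusted p = 0.541), and the call was lost without Sirt6 cKO 2. *Spag17*, a large protein of the central pair projections, had 198 and 536 counts in WT against 210 and 426, with the spread inside each group larger than the difference between them. It shares 820 exonic bases with *Wdr3*. *Hydin*, a very large protein of the central apparatus, had 376 and 443 counts in WT against 332 and 497. The levels were 6.35 ± 0.861 and 6.62 ± 1.59 CPM (SD, n = 2 each) and the log2 fold change was 0.06 (SE 0.42, adjusted p = 0.981), which turned to -0.015 and -0.029 under upper quartile scaling and library size alone. *Spag16* and *Hydin*, both with an X-box, thus stood at opposite ends of the role.

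*Zmynd10* encodes a factor that assembles dynein arms in the cytoplasm. It had 353 and 355 counts in WT against 164 and 134, a log2 fold change of -1.19 (SE 0.51, adjusted p = 0.609). *Ak7*, an adenylate kinase of cilia, had 727 and 422 counts against 228 and 371, and *Nme5*, a nucleoside diphosphate kinase-like protein of cilia, 94 and 70 against 47 and 29. These 3 were lower without overlap and did not pass the unadjusted test.

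*Sntn* encodes sentan, a protein of the ciliary tip (chr14:13670876-13683148, plus strand). It had 599 and 351 counts in WT against 75 and 129 in the cKO-labelled libraries, with no overlap. The levels were 7.33 ± 2.57 and 1.63 ± 0.543 CPM (SD, n = 2 each). The log2 fold change was -2.17 (SE 0.57, adjusted p = 0.541), and the call was lost without WT 1 and without Sirt6 cKO 1.

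*Fam183b* and *Dynlrb2* had the next largest negative fold changes after *Armc4*, at counts too low to be precise. *Fam183b* (chr11:58792797-58801960, minus strand) had 14 and 24 counts in WT against 0 and 2, levels of 0.296 ± 0.115 and 0.0156 ± 0.022 CPM (SD, n = 2 each). With a floor of 3 counts in each of the cKO-labelled libraries it was at least 6.13-fold lower there, and the test gave an adjusted p = 0.662. *Dynlrb2* (chr8:116504974-116515915, plus strand), a light chain of dynein, had 59 and 49 counts against 0 and 16, levels of 0.836 ± 0.0929 and 0.125 ± 0.176 CPM (SD, n = 2 each). Its log2 fold change was -2.72 (SE 2.095, adjusted p = 0.769).

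*Tppp3*, a tubulin-binding protein made in ciliated and some other epithelia, was the most abundant member. It had 5629 and 9089 counts in WT against 5548 and 5095, levels of 247 ± 91.2 and 183 ± 17.99 TPM (SD, n = 2 each). The groups overlapped and the log2 fold change was -0.42 (SE 0.29, adjusted p = 0.747). *Pifo*, which acts at the ciliary base, had 181 and 330 counts against 137 and 187 and overlapped as well.

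**Figure D3:**
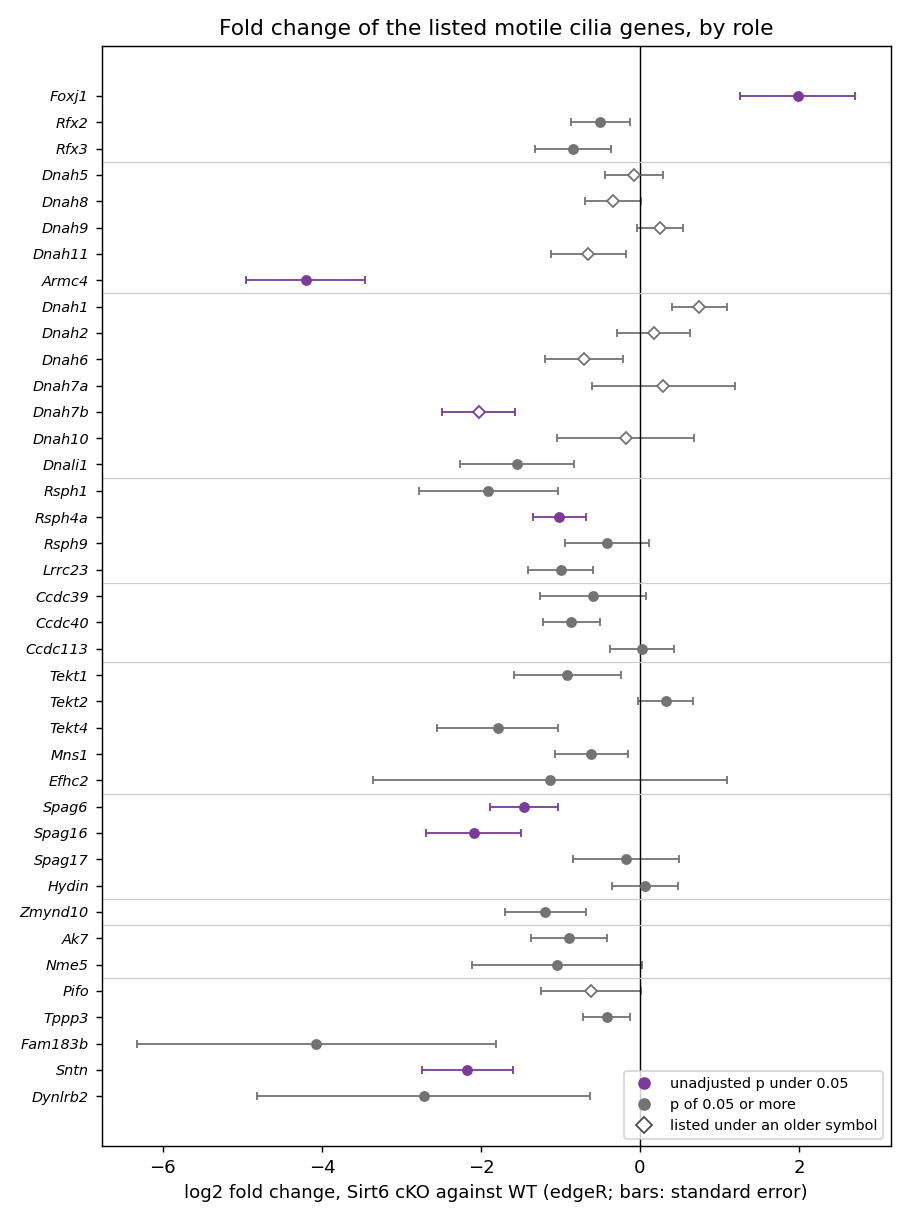
log2 fold change (Sirt6 cKO against WT) of the 39 listed genes found, by role, as points with the standard error of the edgeR fit; purple marks an unadjusted p under 0.05 and open diamonds the genes under older symbols. *Foxj1* (1.98) lies furthest right, and *Armc4* (-4.21) lies furthest left among the called genes. The dynein heavy chains other than *Dnah7b* (-2.03) lie between -0.71 and 0.75.

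The genes upstream of the axoneme were read from a list of the multiciliation switch, of which 17 of 18 were in the table and 16 were tested. At the unadjusted p 0 were higher and 2 lower, and the median log2 fold change was -0.07. The count was 0 without WT 2 and 0 without Sirt6 cKO 2. The called genes act in the multiplication of centrioles: *Deup1* had 617 and 1010 counts in WT against 287 and 250 (log2 fold change -1.55, adjusted p = 0.541), and *Ccdc78* had 394 and 1181 against 144 and 208 (log2 fold change -2.13, adjusted p = 0.541). *Mcidas*, which with *Gmnc* starts the programme, had 248 and 194 counts against 88 and 8, a log2 fold change of -2.11 (SE 1.24, adjusted p = 0.695). *Gmnc* had 21 and 178 against 42 and 63. *Myb* and *Ccno*, later factors of the same switch, had log2 fold changes of -0.17 and -0.04. *Trp73*, which lies upstream of *Foxj1* in airway cells, had 142 and 0 counts in WT against 33 and 110.

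The list of other axoneme genes held 69, of which 66 were in the table and 60 were tested. At the unadjusted p 0 were higher and 5 lower, 46 of 60 were negative and the median was -0.32. The 5 were *Ccdc151*, an outer arm docking gene (log2 fold change -2.32), *Cfap45*, a gene of the doublet lumen (-2.35), *Cfap206* (-1.61), *Capn13* (-1.67) and *Spef1*, a central pair gene (-1.27). *Ccdc151* works in the same docking complex as *Armc4* and had 426 and 218 counts in WT against 94 and 28. Other docking genes on the list were not lower. *Ccdc114* had 580 and 1210 counts in WT against 767 and 1060 (log2 fold change 0.07), and *Ttc25* had 203 and 280 against 331 and 262 (0.35). The count was 1 without Sirt6 cKO 1 and 2 without WT 2. An X-box was in 22.2% of the 54 promoters matched on this list and the forkhead motif in 16.7%.

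Intraflagellar transport (IFT) carries cargo in all cilia, motile or not. Of 29 IFT genes tested 17 were positive, the median was 0.06, and 1 was higher at the unadjusted p (*Ttc21b*, 474 and 686 counts in WT against 1587 and 917) and 0 lower. Without Sirt6 cKO 1 the count was 0, and it was 2 without WT 1 and 2 without Sirt6 cKO 2. Sperm genes with no role in motile cilia were mostly near the limit of detection. Of 27, 18 were tested, with a median of 0.0068, and between 6 and 10 had a count of 0 in each library. *Akap3* was the one called lower, with 35 and 16 counts against 0 and 0. It passed the filter on low counts only through the WT libraries, which fixed the direction of its call. No test compared these lists with the 28 members.

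**Figure D4:**
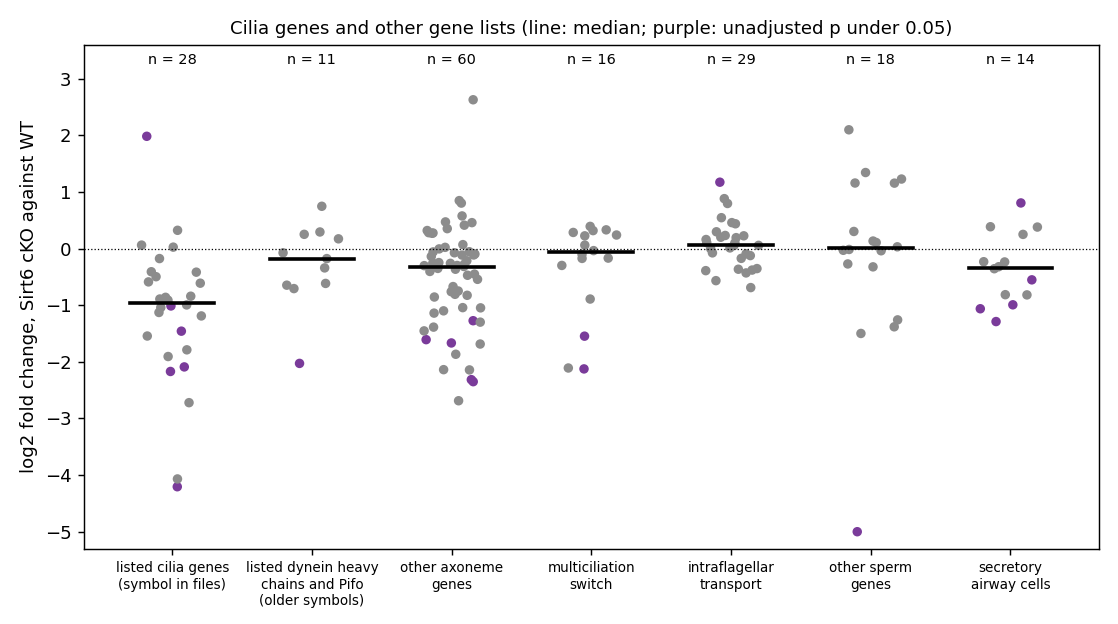
log2 fold change (Sirt6 cKO against WT, vertical axis) of each tested gene in 7 lists, with the median as a line and genes at an unadjusted p under 0.05 in purple; 1 sperm gene, *Akap3*, is drawn at the edge of -5. The median is -0.95 for the 28 members, -0.18 for the 11 genes under older symbols and -0.32 for other axoneme genes. It is -0.07 for the multiciliation switch, 0.06 for IFT genes, 0.0068 for sperm genes and -0.34 for secretory airway genes.

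Secretory cells neighbour ciliated cells in the airway, and their genes are also made in mTECs. Of 14 secretory airway genes, all tested, 4 were lower (*Bpifa1*, *Bpifb1*, *Cyp2f2* and *Reg3g*) and 1 higher (*Sftpa1*) at the unadjusted p. Their median log2 fold change was -0.34. Without overlap 7 were lower and 1 higher, beside 20.3% and 21.6% of all genes tested. DESeq2 called 2 lower, *Reg3g* (adjusted p = 4.3e-06) and *Bpifa1* (0.012), a call that 0.795% of its genes had. The summed level of the 14 genes was 4044 and 4794 TPM in WT and 2563 and 2193 TPM in the cKO-labelled libraries, with no gene at 0. Of 8 markers of macrophages and dendritic cells, 3 were lower (*Lyz2*, *Adgre1* and *Cd68*), and the sum was 9897 and 6189 TPM in WT against 3941 and 4186 TPM. Most of that sum was *Lyz2*, at 9532 and 5941 TPM in WT against 3664 and 3955 TPM. DESeq2 gave *Lyz2* and *Cd68* adjusted p-values of 0.030 and 0.028. Of the 8, 6 had a negative log2 fold change, while *Ptprc* (0.27) and *Itgam* (0.57) were positive. Of 12 thymocyte markers 0 passed in either direction, with sums of 1529 and 1103 TPM against 1293 and 752 TPM, and of 5 B cell markers 0 passed, with sums of 203 to 244 TPM against 162 to 212 TPM. Of 8 markers of cortical epithelium 3 were higher (*Ly75*, *Dll4* and *Foxn1*), with sums of 661 to 691 TPM against 623 to 874 TPM. DESeq2 gave *Foxn1* an adjusted p of 0.031. Among these 8, 4 log2 fold changes were positive and 4 negative, *Psmb11* (-0.25) and *Prss16* (-0.41) among the latter, and the median was 0.07. Of 8 markers of fibroblasts and endothelial cells 0 passed, with sums of 609 to 687 TPM against 556 to 649 TPM. The part of these populations in the levels of the cilia genes was not tested.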

How the data were processed

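mTECs of 2 WT and 2 Sirt6 cKO mouse samples were measured by RNA-seq. Reads were trimmed by the authors (Trim Galore), mapped to mm10 (HISAT2 2.1.0) and quantified per gene (StringTie 1.3.3; versions from the submitters' processing notes). The deposited counts were whole numbers per gene without normalization. The deposited TPM values summed to 1000000 a library once a line with the column total was left out. The annotation and the strand setting were not given in the sources used here.

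The counts were tested with edgeR 4.0.16 in R 4.3.3 (TMM, filterByExpr at 10 counts in the smaller group and 15 in all, quasi-likelihood test) over 18547 genes, with Benjamini-Hochberg adjustment over all of them at 0.05. CPM used the TMM factors. For a member with 3 or fewer counts in each library of a group, a bound on the fold was computed with 3 counts in each. This bound covers counting error only. The fits, medians and figures used the counts without this floor. Every listed gene found is named. Those with full statistics are the transcription factors, the members with an unadjusted p under 0.05, and the 3 largest and 3 smallest log2 fold changes. Of the other lists, called genes and the main regulators are named.

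Members and lists were chosen with earlier results of these data known. Positions came from GENCODE M21 (GRCm38, as in mm10) and promoters from RefSeq GRCm38.p6. Alternatives were DESeq2 1.42.0 (the authors' tool), no filter, the authors' TPM filter of 0.1, upper quartile scaling, library size alone, a replicate block, limma 3.58.1 on log2(TPM + 1) and log2(TPM + 0.1), and each library left out. The procedure was tested on simulated data. No 2 libraries were alike within sampling noise (chi-square per gene 154 or more).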

Additional observations from a re-analysis of the deposited data

How the results depend on the processing

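Between 22 and 26 of the 28 members were negative in every alternative that tested all 28, and 21 of 25 under the TPM filter. The count of lower members (5) was 10 with DESeq2, 8 with upper quartile scaling and 9 with log2(TPM + 1), and ran from 2 to 11 when libraries were left out. The count of higher members (1) was 0 with the replicate block and with log2(TPM + 0.1), and 0 to 2 with libraries left out. DESeq2 called 1 member at the adjusted p. Members higher without overlap numbered 2 to 5 and the median ran from -1.20 to -0.59 with libraries left out, and the median was -0.71 with the 11 genes under older symbols, which were added after seeing the data. Over all genes, libraries left out gave 394 to 1152 higher and 332 to 828 lower. The switch list had 1 call with log2(TPM + 0.1) and 0 to 3 with libraries left out. The other axoneme list had 10 with either TPM scale, and 1 to 6 with libraries left out. The IFT list had 0 with library size alone, the replicate block and both TPM scales, and 0 to 2 with libraries left out.

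The sign of *Ccdc113* turned with upper quartile scaling (-0.054) and library size (-0.065), of *Hydin* likewise (-0.015 and -0.029), of *Efhc2* with the block (1.67) and with log2(TPM + 0.1) (0.38), and of *Dnah10* with the block (0.24) and with log2(TPM + 0.1) (0.13). With libraries left out, log2 fold changes that crossed 0 ran from -1.71 to 0.022 for *Ccdc39*, -0.12 to 0.13 for *Ccdc113*, -1.07 to 0.036 for *Mns1*, -2.15 to 8.71 for *Efhc2* (a fitted value against WT 1 at 0, no bound), -0.76 to 0.74 for *Spag17*, -0.24 to 0.29 for *Hydin*, -0.34 to 0.22 for *Dnah5*, -0.028 to 0.45 for *Dnah9*, -0.32 to 0.63 for *Dnah2*, -0.16 to 0.66 for *Dnah7a* and -0.92 to 1.39 for *Dnah10*. Of members that did not pass, *Rfx3* (-0.32), *Ccdc40* (-0.44), *Lrrc23* (-0.58), *Pifo* (-0.093) and *Tppp3* (-0.0054) were nearer 0 without WT 2, *Rfx2* (-0.16), *Dnah6* (-0.20), *Rsph9* (-0.19) and *Dynlrb2* (-1.74) without Sirt6 cKO 1, *Dnah8* (-0.15) and *Tekt2* (0.18) without Sirt6 cKO 2, and *Ak7* (-0.49) without WT 1. The causes were not tested.

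Whether the replicate numbers pair the samples is not known, since the labels give no litter or day. The differences between replicates 1 and 2 correlated across genes at r = -0.054 between the groups. This value cannot exclude a shared litter or day. The log2 fold change of *Foxj1* was 1.98 in the fit with the replicate block and did not pass there. A fit without 1 library leaves a group of 1, which is assumed to vary like the other group. At 2 libraries a group, the standard errors of *Fam183b*, *Dynlrb2* and *Nme5*, at under 100 counts in each library, and of *Efhc2*, with 0 and 230 counts in WT, exceeded 1 on the log2 scale.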
